A study of Mus musculus with 20 samples.

Results

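XEN cells were compared with uninduced ES cells (d0) by ATAC-seq, in which the Tn5 transposase cuts exposed DNA, at regions bound by GATA6. All 42403 regions of the table entered the comparison, 42403 of 42403. Each region was described by its GATA6, SOX17 and pluripotency factor class and by its nearest gene. The series holds 20 samples. Of these, 3 are d0, 3 are XEN and the other 14 follow GATA6 induction by doxycycline from 8 h to day 4. The d0 cells were KH2 ES cells (C57BL/6 x 129/Sv) with a doxycycline-inducible Gata6 cassette, left without treatment and kept with LIF on fibroblast feeders. The XEN cells were the X10 line, wild type and CD1, also untreated, grown in serum medium on feeders with no LIF listed. The day 4 cells, shown beside them for orientation, were the KH2 cells after induction with 1 ug/mL doxycycline. Cell type, strain, line and culture medium differed together between d0 and XEN and cannot be told apart. XEN cells came from 1 line, and the labels do not tie the d0 samples to a clone of the inducible line.

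XEN cells are the stem cell line of the primitive endoderm, the lineage of the blastocyst that forms the yolk sac endoderm. GATA6 starts this lineage in the embryo, and GATA4, SOX17 and SOX7 act after it. ES cells represent the neighbouring epiblast and are held in the pluripotent state by OCT4, SOX2, NANOG and ESRRB. OCT4, SOX2 and ESRRB are the pluripotency TFs (PTFs) whose binding classes are used here. ATAC-seq reads exposed chromatin at enhancers and promoters and does not measure the expression of the gene beside them.

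The sequences that carry the contrast were the centres of the regions with the largest changes, and those of 3 gains and 4 losses are shown here. Each is 201 bases around the GATA6 summit (mm10, plus strand), read from the GRCm38 genome. Capitals mark the best match in the region to the GATA6, SOX17, OCT:SOX or ESRRB matrix, wherever that match lay inside the window. The gained regions were nearest to Tut4 (chr4:108448125-108448325, a GATA6 and a weak OCT:SOX match in capitals), Arnt2 (chr7:84340219-84340419, a SOX17 match) and P3h2 (chr16:26083056-26083256, an ESRRB and then a SOX17 match).
Tut4 gain: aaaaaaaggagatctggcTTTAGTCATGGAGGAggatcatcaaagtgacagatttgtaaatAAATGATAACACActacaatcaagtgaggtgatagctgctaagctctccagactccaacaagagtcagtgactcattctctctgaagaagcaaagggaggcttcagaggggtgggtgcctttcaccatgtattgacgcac
Arnt2 gain: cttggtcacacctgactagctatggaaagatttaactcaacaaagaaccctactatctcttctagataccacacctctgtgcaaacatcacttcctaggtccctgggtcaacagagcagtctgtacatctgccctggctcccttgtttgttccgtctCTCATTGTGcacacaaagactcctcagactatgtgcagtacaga
P3h2 gain: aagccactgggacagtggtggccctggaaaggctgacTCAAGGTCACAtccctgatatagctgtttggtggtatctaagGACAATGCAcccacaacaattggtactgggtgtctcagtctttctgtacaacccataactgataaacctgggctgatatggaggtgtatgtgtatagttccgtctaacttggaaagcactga

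The lost regions were nearest to Stoml1 (chr9:58279407-58279607, a SOX17 match in capitals), Zc3h11a (chr1:133667762-133667962, an OCT:SOX and then a SOX17 match), G6pd2 (chr5:60882664-60882864, an ESRRB, an OCT:SOX and a SOX17 match) and Grik2 (chr10:49417298-49417498, an OCT:SOX and a SOX17 match).
Stoml1 loss: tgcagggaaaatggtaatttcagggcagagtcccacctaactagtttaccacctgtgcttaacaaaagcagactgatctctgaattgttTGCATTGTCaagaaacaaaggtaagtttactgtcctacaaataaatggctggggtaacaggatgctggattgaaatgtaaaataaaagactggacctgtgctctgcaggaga
Zc3h11a loss: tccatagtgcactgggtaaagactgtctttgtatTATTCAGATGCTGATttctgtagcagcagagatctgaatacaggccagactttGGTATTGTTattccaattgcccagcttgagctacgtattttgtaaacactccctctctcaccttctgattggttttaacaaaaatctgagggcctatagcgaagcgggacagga
G6pd2 loss: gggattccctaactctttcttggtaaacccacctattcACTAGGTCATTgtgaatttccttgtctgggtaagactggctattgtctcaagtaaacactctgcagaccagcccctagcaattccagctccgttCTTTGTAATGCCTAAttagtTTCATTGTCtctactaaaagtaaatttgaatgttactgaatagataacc
Grik2 loss: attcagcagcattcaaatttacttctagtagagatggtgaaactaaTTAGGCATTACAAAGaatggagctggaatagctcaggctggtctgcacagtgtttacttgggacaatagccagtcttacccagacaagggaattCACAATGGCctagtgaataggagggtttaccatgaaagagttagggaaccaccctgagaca

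The G6pd2 and Grik2 losses lay on different chromosomes but shared sequence in opposite orientation. Their longest common run was 28 bases, and 125 of 192 bases were equal in an ungapped alignment. Among the 253 pairs of 23 such windows of the largest gains and losses, the next longest common run was 14 bases. The best OCT:SOX match of each region was the same, CTTTGTaATGCctAa along the motif.

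The matches themselves are written along the motif, with capitals where the base equals the most frequent base of all deposited matches. Those bases are AAGAGATAAGAAA for GATA6, CTTTGTTATGCAAAT for OCT:SOX and TCAAGGTCATA for ESRRB. The best GATA6 matches of the gains Fhl2 and P3h2 scored 12.07 and 11.31, and the best OCT:SOX matches of the losses Vwa3b, Zc3h11a and Il7 scored 15.52, 13.19 and 13.16. The Akap12 loss held an ESRRB match of score 16.53.
Fhl2 GATA6 match: cgtAGATAAGgAc
P3h2 GATA6 match: ccaAGATAAGctA
Vwa3b OCT:SOX match: CTTTGaTATGtAAAa
Zc3h11a OCT:SOX match: taTTcagATGCtgAT
Il7 OCT:SOX match: tTTTaTaATGCtAAT
Akap12 ESRRB match: TCAAGGTCAag

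The kinds of matches overlapped between gains and losses. The P3h2 gain held an ESRRB match of score 16.95, and the Nop58 loss a GATA6 match of score 12.06. The Ankrd7 gain held no deposited match to any of the 4 matrices.

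Accessibility was given as 1 average per group in RPM, the reads of a region scaled by library size, without division by region width, so a region was compared only with itself. The change of a region is the difference of log2(RPM + 0.03) between XEN and d0, minus the median difference of its chromosome, and is called the centred change. Each group entered with 1 value, so these changes carry no SD and no test. At 24753 regions on 12 chromosomes the averages could be resolved into single libraries of whole reads. They gave 2 XEN libraries, although 3 samples are labelled. Library A held 43.3 M reads, with a median of 6 reads per region, and library B 288.4 M reads, with a median of 33. The centred changes of A and B differed by a median of 0.37. The d0 average could not be resolved, and the 3 libraries of the 8 h group (210.6 M to 213.3 M reads) served as the baseline where libraries were tested. The title of that group reads 8 h while its treatment label reads 16 h, and the groups titled 16 h, day 1 and day 2 also carry treatment labels with longer times. The times of the titles are used throughout. The median region stood at 0.0777 RPM at d0 and at 0.08 RPM at 8 h. Per the study's methods, the libraries of a group came from separate cultures, and p-values rest on the spread between libraries. In limma this spread is shared by the recovered libraries of all groups, so it is not that of the XEN libraries alone.

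Before centring, the median region was higher in XEN cells than at d0 by 0.40 on the log2 scale, and the size of this shift differed between chromosomes. It was 0.16 on chromosome 11, 0.23 on chromosome 17, 0.71 on chromosome 8, 0.74 on chromosome 19 and 0.82 on chromosome 16. At day 4, in the ES cell line itself, the autosomes lay between 0.45 and 0.57. Chromosome 16 stood above chromosome 11 within each GATA6 class. On chromosome 16 the Early&Constant, Late and Transient regions stood at 0.93, 1.45 and 0.18, and on chromosome 11 at 0.17, 0.85 and -0.32. In bins of 25 Mb, the medians ran from 0.62 to 0.96 along chromosome 16 and from 0.03 to 0.22 along chromosome 11. Libraries A and B gave 0.76 and 0.64 on chromosome 8 and 0.17 and 0.10 on chromosome 11. Without centring, 42.5% of the regions of chromosome 16 and 18.3% of those of chromosome 11 would count as higher past 2-fold. With it the shares were 15.8% and 14%.

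**Figure D1:**
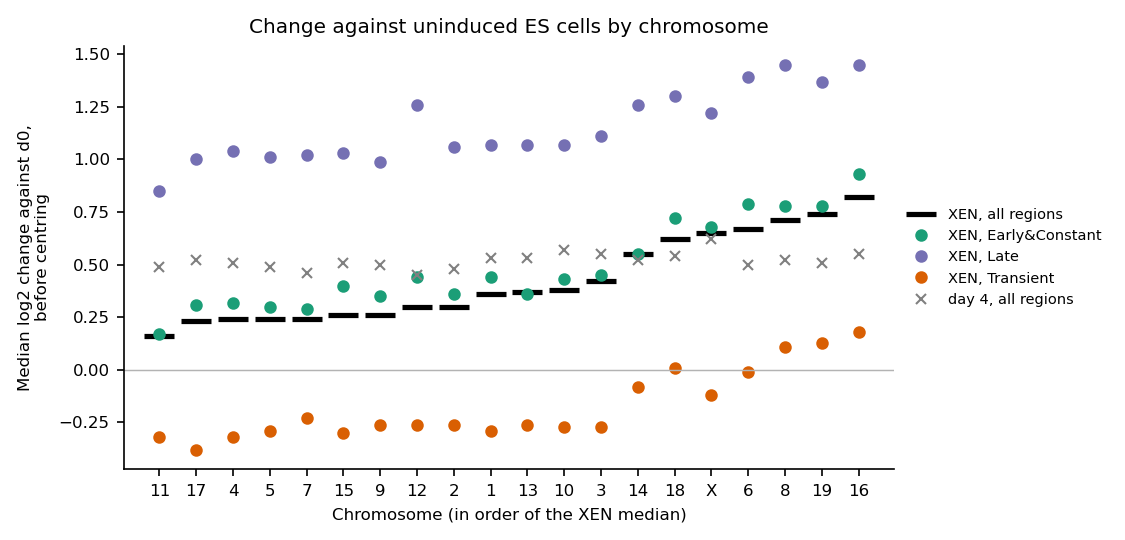
Median log2 change against d0 before centring (vertical axis) for each chromosome with more than 1 region (horizontal axis, in order of the XEN median). Bars show XEN over all regions, coloured points XEN in each GATA6 class and crosses day 4. The XEN medians run from 0.16 to 0.82, and the 3 classes keep their order on each chromosome.

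After centring, 6759 regions were higher in XEN cells past 2-fold, 15.9% of all regions, and 6479 were lower, 15.3%. The middle 50% of regions lay between -0.63 and 0.67, and the full range was -3.88 to 3.55. Higher regions made up 51.1% of the regions past 2-fold with centring and 75.8% without it, when 11738 were higher and 3745 lower. The higher regions were nearly closed at d0, with a median of 0.0465 RPM against 0.268 RPM in XEN cells, and 94.4% of them, against 61.3% of all regions, belonged to the class that the authors labelled closed at d0. That class was set from d0 ATAC-seq, which is also the baseline, so the share is a description. The lower regions stood at a median of 0.275 RPM at d0 and 0.101 RPM in XEN cells.

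In the test over libraries, XEN against 8 h, 3660 of the 24753 regions were higher (14.8%) and 3433 lower (13.9%) with a change past 2-fold and a Benjamini-Hochberg adjusted p under the threshold of 0.05 in limma. The median SE of a change was 0.29. Leaving out XEN library A or B gave 3901 and 3954 higher and 3269 and 4094 lower regions, with the lone XEN library assumed to vary like the other groups. In simulated libraries of these depths, 97.0% of regions raised 4-fold but 56.4% of those lowered 4-fold were called. Lowered regions were thus called less often than raised ones in the simulation. Its changed regions were drawn from all with an 8 h mean above 0.05 RPM. The regions lower in XEN cells had an 8 h median of 0.257 RPM, so the 56.4% need not hold for them.

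The 12 largest gains were intergenic or intronic, as were most regions (46.1% and 45.4% of all). Of the 12, 11 overlapped a SOX17 peak, against 44.5% of all regions. The Late class, bound by GATA6 at late times, held 9 of them, against 33.6% of all regions. None of the 12 gains was bound by PTFs at d0, against 20.8% of all regions. The gains passed the floor of 0.5 RPM through their XEN level alone, so these shares are a description. Tut4, which encodes a terminal uridylyltransferase, had such a region 11.2 kb from its start (chr4:108447822-108448679). It stood at 0.0481 RPM at d0, 0.493 at day 4 and 0.996 in XEN cells, with 1.18 and 0.815 in the XEN libraries against 0.019, 0.0658 and 0.075 in the 8 h libraries. The XEN and 8 h libraries did not overlap, and the change over libraries was 3.46 with an SE of 0.29 (limma, adjusted p = 5.43e-20). The largest gains and losses were picked by their XEN change, and the single regions of listed genes below after their values were seen. These choices and the test rest on the same XEN libraries, so low p-values and a lack of overlap there are a description. An intron of Arnt2, a bHLH-PAS transcription factor gene, held a region (chr7:84339870-84340578) at 0.0559 RPM at d0 and 0.769 RPM at day 4. It reached 1.11 and 0.895 RPM in the XEN libraries, against 0.0332, 0.0517 and 0.103 RPM at 8 h (change 3.34, SE 0.27, limma adjusted p = 8.76e-21).

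The gain furthest from any gene start lay 1100 kb from Ankrd7 (chr6:19963571-19964022) and had no SOX17 peak. It was at 0.013 RPM at d0, 0.0305 at day 1, 0.0495 at day 2 and 0.0487 at day 4. It reached 0.716 and 0.673 RPM in the XEN libraries, against 0.00949, 0.0188 and 0.0328 RPM at 8 h. Its centred change was 3.40 in XEN cells and 0.37 at day 4, while the other 11 gains had day 4 changes between 1.59 and 3.21. P3h2, a prolyl 3-hydroxylase gene for collagens, had an intronic region (chr16:26082509-26083659) at 0.0775 RPM at d0, 0.753 at day 4 and 1.79 in XEN cells. Its change was 3.26 with centring and 4.08 without, the difference being the shift of chromosome 16.

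All of the 12 largest losses were Transient regions, bound by GATA6 only for a time, and were bound by PTFs at d0. Of all regions, 38.4% were Transient and 20.8% were bound by PTFs at d0. Active enhancer marks in ES cells were carried by 9 of the 12 losses, against 11.2% of all regions. The losses passed the floor of 0.5 RPM through their d0 level alone, and regions open at d0 differ in class from all regions. Of the 3152 regions that the authors labelled accessible at d0, 1867 were bound by PTFs at d0. The shares of the losses are thus a description. The largest loss lay 7.01 kb from Ftl1-ps1 (chr13:74399147-74399632), at 0.857 RPM at d0, 0.222 at day 4 and 0.048 in XEN cells. The XEN libraries held 1 and 21 reads there (0.0231 and 0.0728 RPM) and the 8 h libraries 0.65, 1.11 and 0.67 RPM (change -3.81, SE 0.25, limma adjusted p = 2.72e-26). No recovered count was below 1 read, so the library with 1 read stood at the floor. A region 26.3 kb from Stoml1 (chr9:58278903-58279950) fell from 0.693, 1.11 and 0.633 RPM at 8 h to 0.0462 and 0.0798 RPM in the XEN libraries (change -3.40, SE 0.26, limma adjusted p = 2.56e-22). Its averages were 0.845 RPM at d0 and 0.131 RPM at day 4. The Grik2 intron region (chr10:49416771-49418041) and the G6pd2 region (chr5:60882400-60883234), whose sequences match, had d0 averages of 0.634 and 0.611 RPM and XEN averages of 0.0549 and 0.0439 RPM. Both had a centred change of -2.83 at day 4, against -3.35 and -3.36 in XEN cells. At all 12 losses the day 4 average lay above the XEN average and at all 12 gains below it, which the choice of regions by their XEN change favours.

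**Figure D2:**
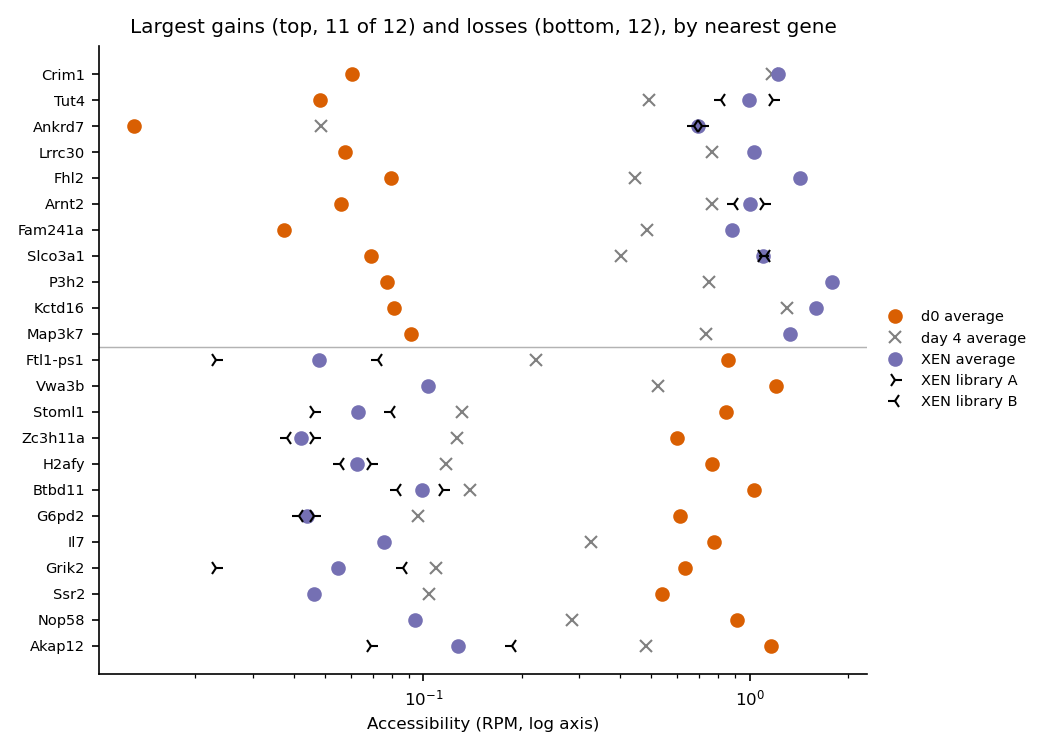
Accessibility in RPM (horizontal log axis) of 11 of the 12 largest gains and of the 12 largest losses, named by nearest gene. Circles are the d0 and XEN averages, crosses the day 4 averages, and black marks the 2 XEN libraries where they could be recovered. At each region the d0 and XEN averages stand far apart and the XEN libraries lie on the XEN side.

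The changes differed by GATA6 binding class and by SOX17. Late regions had a median centred change of 0.73, with 35.6% higher and 0.828% lower. Transient regions stood at -0.60, with 0.135% higher and 31.0% lower. Early&Constant regions were centred near zero at 0.06, with 14.1% higher and 11.1% lower. The day 4 medians of the 3 classes were 0.48, -0.73 and 0.37. Regions with a SOX17 peak stood at 0.31 (25.1% higher, 12.1% lower) and those without at -0.19 (8.61% higher, 17.8% lower). Transient regions with PTFs at d0 had -1.44 with SOX17 and -1.25 without, and those with no PTF -0.42 and -0.34. With ectopic PTFs the Transient values were -0.37 and -0.43. The classes come from ChIP-seq by the authors over the induction. The study's methods name GATA6 enrichment at the time points as the input of the GATA6 classes. A figure of the study describes GATA6 regions found over the time points and also in XEN cells. Regions may thus have entered through GATA6 binding in XEN cells, so the XEN medians by GATA6 class are a description.

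PTF binding at d0 marked the losses. The 8841 regions bound by OCT4, SOX2 or ESRRB at d0 had a median of -1.03, with 51.4% lower and 1.43% higher, and regions without PTF binding stood at 0.22. The 7038 regions bound by PTFs only after induction (ectopic) had 0.19 in XEN cells and 0.76 at day 4. Within the regions of moderate d0 accessibility, those bound by PTFs at d0 had a median of -1.08 and those not bound -0.44. In the accessible class the values were -1.85 and -0.57. The accessibility class was set from d0 ATAC-seq, which is also the baseline here, so these 4 values are a description.

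Crossing the classes separated the extremes further. Late regions with SOX17 and no PTF stood at 0.91, with 45.3% higher, and at 0.86 at day 4. Late regions with neither SOX17 nor PTF stood at 0.64 in XEN cells but 0.11 at day 4. Early&Constant regions with SOX17 and ectopic PTFs showed the opposite order, 0.41 in XEN cells and 1.02 at day 4. Early&Constant regions with SOX17 that PTFs bound at d0 were at -0.57 in XEN cells and 0.03 at day 4. Transient regions with SOX17 and PTFs at d0 were the lowest of the 18 combinations at -1.44, with 70.7% lower. XEN and day 4 share the d0 average, and the difference between them was not tested.

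**Figure D3:**
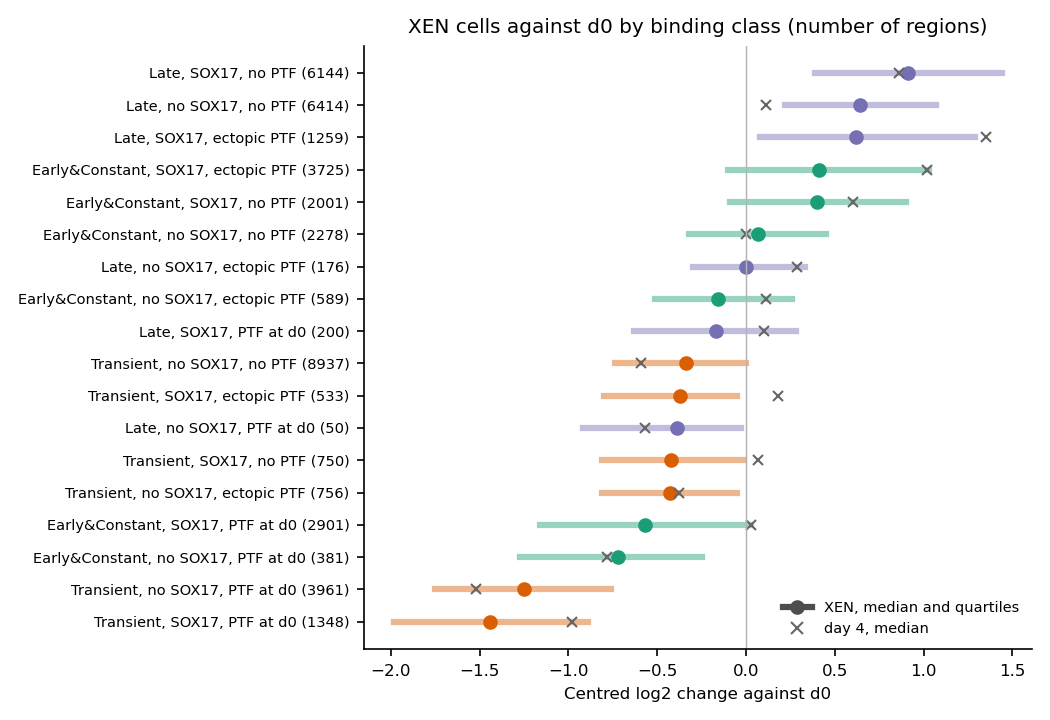
Centred log2 change against d0 (horizontal axis) for the 18 combinations of GATA6 class, SOX17 peak and PTF class, with the number of regions in brackets. Points and bars are the XEN median and quartiles and crosses the day 4 median. Late regions with SOX17 and no PTF are at the top with 0.91 and Transient regions with SOX17 and PTFs at d0 at the bottom with -1.44.

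The same contrasts were measured within each library on the log2(RPM + 0.03) scale. Late minus Transient was 0.46 and 0.53 in the XEN libraries and -0.92, -1.10 and -0.69 in the 8 h libraries. PTF at d0 minus no PTF was 0.21 and 0.21 in XEN and 1.56, 1.78 and 1.29 at 8 h. SOX17 minus no SOX17 was 0.81 and 0.92 against 0.23, 0.31 and 0.32. In each contrast the XEN and 8 h libraries did not overlap. The two-sided exact permutation test gave p = 0.2 for each of the 3 contrasts, also after Benjamini-Hochberg adjustment, which is the smallest p that 2 against 3 libraries allow.

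By the histone marks of ES cells, regions with active enhancer marks had the lowest median, -1.09, with 54.7% lower. Regions of the promoter class stood at -0.52 (-0.79 in library A and -0.28 in library B), primed enhancers at -0.30 and poised enhancers at -0.22. Facultative heterochromatin stood at 0.52 and the class named naive by the authors at 0.45. Late regions of the naive class were higher past 2-fold in 48.0% of cases, and Transient regions with active enhancer marks lower in 70.0%. Regions at which GATA6 binding increased on Oct4 knockdown at day 2 stood at 1.11, with 55.1% higher, and those at which it decreased at -0.51. Regions within 1 kb of a gene start stood at -0.30, but the libraries differed there, with -0.53 in A and -0.07 in B.

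Short DNA words around the GATA6 summit differed between higher and lower regions. Words were counted on both strands in the 201 bases around each summit. The OCT word (ATGCAAAT or ATGCTAAT) was in 5.25% of all regions, in 0.932% of the higher and in 10.4% of the lower ones. The ESRRB word (CAAGGTCA) was in 2.94%, 0.843% and 6.95%, and the KLF word (GGGNGGGG) in 14.2%, 8.39% and 19.7%. The SOX word (ACAAAG or ACAATG) was in 45.5% of all, 59.9% of the higher and 43.1% of the lower regions. The AP-1 word (TGANTCA), bound by FOS and JUN factors, was in 10.7%, 15.6% and 9.34%. The GATA word (AGATAA), present in 54.3% of all regions, was in 52.4% of the higher and 36.4% of the lower regions.

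Within Early&Constant regions the OCT word was in 1.32% of the higher and 10.4% of the lower regions. Within Late regions it was in 0.79% of the higher and in 1.69% of the lower ones, 2 of 118. Within Transient regions it was in 1 of 22 higher regions (4.55%) and in 10.6% of the lower ones. Early&Constant regions with the ESRRB word had a median change of -0.60 and those without it 0.08. Within Late regions, those with the AP-1 word stood at 0.89 and those without at 0.70. Within Transient regions the order was the opposite, -0.72 with the word and -0.58 without, and in Early&Constant regions the medians were 0.16 and 0.05. Higher and lower regions also differed in width (medians of 555 and 686 bases) and in GC content (44.3% and 47.8%), and the part of these in the word shares was not tested. A word is a match of letters, not a measured binding site.

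**Figure D4:**
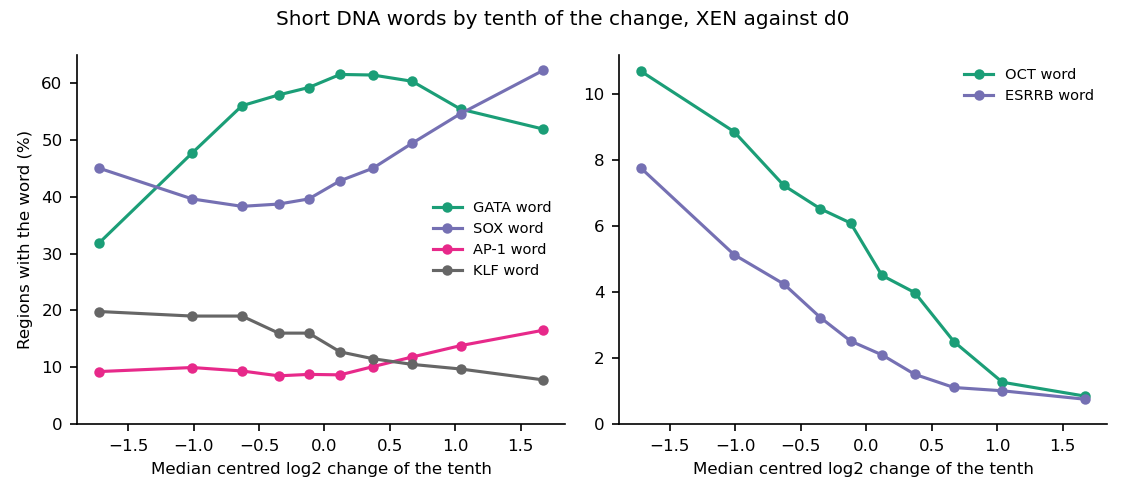
Share of regions holding each DNA word within 201 bases of the summit (vertical axes, from 0) in 10 groups of about equal size by centred change (horizontal axis, median log2 change of the group). From the lowest to the highest group the OCT word goes from 10.7% to 0.849% and the SOX word from 45% to 62.2%.

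Regions near the transcription factors of the primitive endoderm had a positive median change in XEN cells. Of 113 regions nearest to 8 of the 10 listed genes, 35 were higher past 2-fold (31% against 15.9% of all regions) and 2 lower (1.77% against 15.3%). The median was 0.73, and the day 4 median was 1.15. Hnf4a and Sox18 had no region nearest to them. The endoderm factor genes Gata4 and Sox17 both had a median of 0.91, Foxq1 0.87 and Foxa2 0.61 over 31 regions. Gata6 itself had 0.31 over 19 regions, with 5 higher and none lower. Sox7 was the only one of the 8 with a negative median, -0.24, which turned to 0.31 without centring and to 0.04 under quantile normalisation.

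A region 40.3 kb from Sox17 (chr1:4536608-4538990) carried the largest gain of that gene. It stood at 0.243 RPM at d0, 3.32 at day 2 and 2.34 at day 4, and XEN cells had 2.04 RPM. The XEN libraries were at 2.26 and 1.81 RPM and the 8 h libraries at 0.104, 0.202 and 0.211 RPM, with no overlap (change 3.04, SE 0.23, limma adjusted p = 3.07e-22). In Gata6, a region 104 kb upstream (chr18:10947663-10949085) went from 0.116 RPM at d0 to 1.15 at day 4 and 1.4 in XEN cells, a centred change of 2.67. At the Gata6 promoter (chr18:11051211-11053515) the averages were 0.86 RPM at d0, 3.49 at day 4 and 1.85 in XEN cells, a centred change of 0.46. The highest Foxa2 region, 77.2 kb away (chr2:147968328-147969112), was at 0.257, 1.74 and 1.18 RPM.

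The matrix genes of the endoderm did not move as 1 group. Among the laminin genes, Lamb1 had a median of 0.94, Lama1 0.73 and Lamc1 0.09 over 25 regions. The type IV collagen genes, whose chains lie in the same basement membrane, had negative medians after centring. Col4a1 had -0.67 (0.04 without centring) and Col4a2 -0.85 (-0.14 without centring), while their day 4 medians were 0.46 and 1.14. Of the 7 Col4a1 regions, 2 were higher past 2-fold and 2 lower. An intronic region of Col4a1 (chr8:11367027-11368163) stood at 0.0618 RPM at d0, 0.361 at day 2 and 0.538 at day 4. The XEN libraries were at 0.485 and 0.534 RPM and the 8 h libraries at 0.038, 0.0376 and 0.0938 RPM, without overlap (change 2.01, SE 0.28, limma adjusted p = 1.24e-09). An intronic Col4a2 region (chr8:11308478-11310403) stood at 0.691 RPM at d0, 4.45 at day 2 and 3.31 at day 4, and XEN cells had 0.395 RPM. The XEN libraries gave 0.277 and 0.513 RPM and the 8 h libraries 0.456, 0.874 and 0.741 RPM, so the groups overlapped at this region, and the fitted change was -1.46 with an SE of 0.24 (limma, adjusted p = 1.4e-07). A neighbouring intronic region (chr8:11265292-11267105) gave 0.0693 and 0.142 RPM in XEN and 0.29, 0.47 and 0.441 RPM at 8 h, without overlap. In all, 16 of 113 basement membrane regions were higher (14.2%, near the 15.9% of all regions) and 8 lower (7.08% against 15.3%). The median was 0.22, which was 0.61 without centring, and the day 4 median was 0.67.

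Genes of the absorptive and parietal endoderm had positive medians. Of 58 regions at endocytic receptor genes, 17 were higher (29.3% against 15.9% of all regions), with a median of 0.46. Another 7 were lower (12.1%, near the 15.3% of all regions), and 5 of these were at Dab2. Dab2 had the most regions, 18, with 7 higher and a median of 0.65. At the 15 endocytic regions that could be resolved, the median was 0.48 in XEN library A and 0.91 in library B. Ctsl, a lysosomal protease gene, had a region (chr13:64374901-64376085) at 0.19 RPM at d0 and at 1.2 RPM in both XEN libraries, against 0.195, 0.174 and 0.136 RPM at 8 h (change 2.30, SE 0.24, limma adjusted p = 4.71e-15). Amn, the partner of the cubilin receptor, differed. Its only region was at 0.481 RPM at d0, 2.48 at day 2 and 1.52 at day 4, against 0.273 RPM in XEN cells, a centred change of -1.05.

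Of 52 parietal endoderm regions, 18 were higher (34.6% against 15.9% of all regions) and 1 lower (1.92% against 15.3%). The median was 0.59. The highest median was 1.68 over 2 regions at Stra6, which encodes a receptor for retinol-binding protein. The thrombomodulin gene Thbd had 1.43 at 1 region and the parathyroid hormone receptor gene Pth1r 1.39 over 6. The lowest medians of the list were 0.07 for Sparc and -0.27 for Snai1. Lamb1 and Sparc belong to this list and to the basement membrane list. Genes for secreted proteins of the visceral endoderm had 24 regions, 4 higher (16.7%, near the share over all regions) and 1 lower (4.17%), with a median of 0.38. Apoa1 had 0.99, against -0.20 at day 4, and the single Apoe region, at its promoter (chr7:19698179-19699878), went from 1.32 RPM at d0 to 0.306 RPM in XEN cells. The Ttr promoter (chr18:20664808-20665655) went from 0.0562 to 0.631 RPM. Afp, Alb and Rbp4 had no region.

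**Figure D5:**
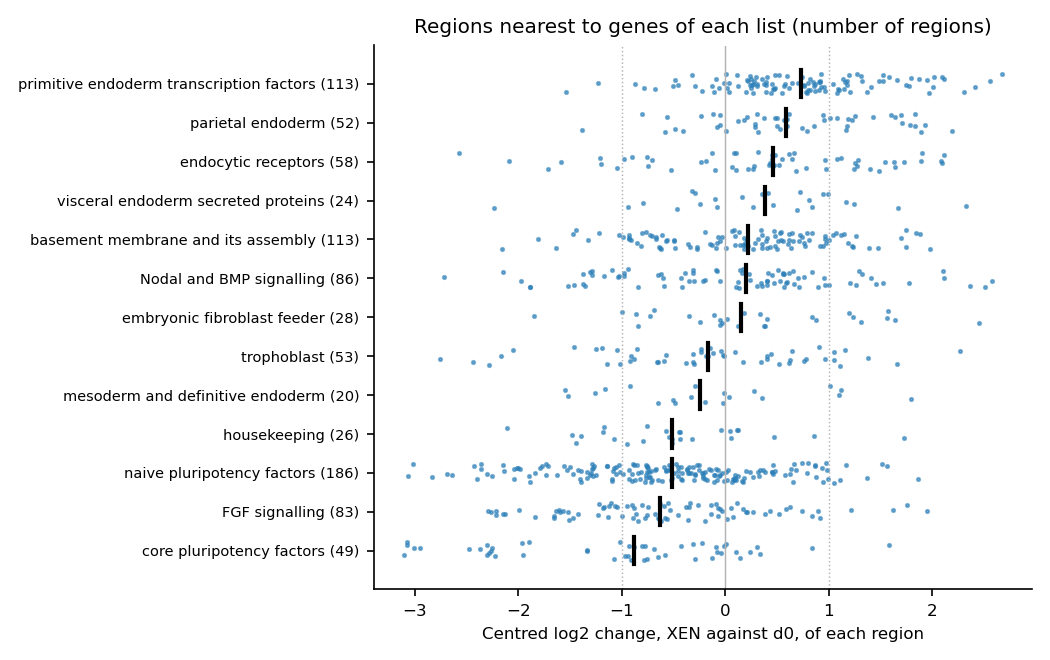
Centred log2 change (horizontal axis) of every region nearest to a gene of each of the 13 lists, with the number of regions in brackets. Each point is a region, black bars are list medians and dotted lines mark 2-fold. Medians run from -0.89 for the core pluripotency factors to 0.73 for the primitive endoderm transcription factors.

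Regions near the core pluripotency factors had a negative median. Of 49 regions, 20 were lower (40.8% against 15.3% of all regions) and 1 higher (2.04% against 15.9%). The median was -0.89, or -0.51 without centring, and at the 18 resolved regions it was -1.52 in library A and -1.14 in library B. The genes had medians of -1.02 for Esrrb, -0.95 for Nanog, -0.89 for Pou5f1, which encodes OCT4, and -0.56 for Sox2 over 26 regions. A region 4.86 kb from Nanog (chr6:122702448-122703147) stood at 1.13 RPM at d0, 1.76 at day 2 and 0.537 at day 4, and XEN cells had 0.189 RPM. The XEN libraries were at 0.139 and 0.239 RPM and the 8 h libraries at 0.726, 1.49 and 1 RPM (change -2.98, SE 0.24, limma adjusted p = 6.02e-21). A Sox2 region 111 kb from the gene (chr3:34760373-34761724) went from 1.07 RPM at d0 to 0.207 at day 4 and 0.14 in XEN cells, a centred change of -3.11. An intronic Esrrb region (chr12:86501313-86502276) was at 0.851, 0.11 and 0.105 RPM, with the XEN libraries at 0.115 and 0.0936 RPM and the 8 h libraries at 0.627, 1.17 and 0.473 RPM.

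Naive pluripotency genes were lower in part. Of 186 regions at 17 genes, 55 were lower (29.6% against 15.3% of all regions) and 7 higher (3.76% against 15.9%). The median was -0.52, or 0.00 without centring. Dppa5a had -1.75, Zfp42 (REX1) -1.29, Klf2 -1.14, Prdm14 -1.11 and Tet2 -1.02. Zfp42 had 0.09 at day 4. Klf4 alone had a positive median, 0.09 over 25 regions, which ranged from -2.69 to 1.86. Its region 68 kb from the start (chr4:55463713-55465226) went from 1.08 RPM at d0 to 0.174 RPM in XEN cells. Klf5, with 29 regions, had -0.26 and was positive, 0.29, without centring.

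FGF and NODAL signals act in the epiblast. Of 83 FGF regions, 28 were lower (33.7% against 15.3% of all regions) and 4 higher (4.82% against 15.9%). Their median was -0.64, or -0.14 without centring. Fgf5 had -2.13 and the ERK target genes Etv4, Etv5 and Spry4 had -1.30, -1.20 and -1.07. Fgfr2 had -0.07 over 19 regions, which was 0.16 without centring. Fgf4 had no region. In the Nodal and BMP list, 14 of 86 regions were higher (16.3%) and 17 lower (19.8%), both near the shares over all regions. The median was 0.20, or 0.70 without centring, and 6 genes had a positive and 5 a negative median. The ligand gene Nodal (-2.15, 1 region) and its inhibitors Lefty2 (-1.68, 2 regions) and Lefty1 (-1.30, 3 regions) were low. The BMP ligand genes differed, with 0.96 for Bmp2 and 0.51 for Bmp6, each over 11 regions, and -0.95 for Bmp4 over 3. The Nodal region (chr10:61415465-61417013) was at 1.16 RPM at d0, 0.331 at day 4 and 0.319 in XEN cells.

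Markers of other cells were read beside these lists. Fibroblast feeder genes had 28 regions. Of these, 7 were higher (25% against 15.9% of all regions) and 1 lower (3.57% against 15.3%). The summed level of the feeder regions was 2.47 RPM at d0 and 5.95 RPM in XEN cells. The feeder median was 0.15, and the day 4 median was -0.05. By gene, 6 medians were positive and 5 negative. Dcn had the highest, 1.20 over 6 regions, and Pdgfrb had 1.19 and Col1a1 0.40 at 1 region each. Prrx1, at 1 region, had the lowest, below the -0.92 of Col3a1 over 2 regions. The lowest values of the feeder regions were 0.0151 RPM at d0 and 0.0185 RPM in XEN cells. Over all regions the lowest were 0.00517 and 0.0133 RPM, so no region of any kind was at 0. The XEN minimum is the average that 1 read in each XEN library gives, at 0.0231 RPM in A and 0.00347 RPM in B. No recovered count was below 1 read, so the lowest values are a floor of the counts, which lay higher in XEN cells. With the column minimum subtracted, 7598 regions were higher past 2-fold and 6896 lower. Both cultures used feeders, and their part in the gains was not tested. Trophoblast regions (7 of 53 higher, 13.2%, and 11 lower, 20.8%) had a median of -0.17 that became 0.09 without centring. Mesoderm regions (4 of 20 higher, 20%, and 4 lower, 20%) had -0.25, or 0.08 without centring. Housekeeping genes had 26 regions, 7 lower (26.9% against 15.3% of all regions) and 1 higher (3.85% against 15.9%). The housekeeping median was -0.51 (-0.75 in library A, -0.43 in library B) and -0.05 at day 4. Gapdh had -1.40, Actb -0.95 and Eef1a1 -0.48, and Pgk1, with 0.30, was the only gene of the list with a positive median. The summed level of the housekeeping regions was 12.2 RPM at d0 and 9.9 RPM in XEN cells, and its part in the losses was not tested.

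Over the 3786 genes with 4 or more nearest regions, 248 (6.55%) had a median above 1 and 176 (4.65%) a median below -1. The 10 highest were Mocs2 (2.04), Taf7l (2.0), P3h2 (1.97), Mical2 (1.93), Ica1 (1.89), Colq (1.86), Lyplal1 (1.82), Dkk2 (1.80), Cetn3 (1.77) and Igsf11 (1.77). Mocs2, of molybdenum cofactor synthesis, had 7 of 8 regions higher, and Mical2, an actin-oxidising enzyme gene, 9 of 10. Dkk2 encodes a secreted inhibitor of WNT signalling and had 4 of 6 regions higher. Igsf11, a cell adhesion gene, had 11 of 14 regions higher in XEN cells, with a median level of 0.0446 RPM at d0, 0.0671 at day 4 and 0.415 in XEN cells. Its day 4 median change was 0.09, and that of Ica1 0.33, against 0.92 to 2.18 for the other 8 genes.

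Among the 10 lowest were Mcl1 (-2.25), Zmynd8 (-1.90), Cyp7b1 (-1.88), Cbfa2t2 (-1.86), Vmn2r3 (-1.82), Dppa5a (-1.75), Uso1 (-1.70), Hnf4g (-1.69) and Lama5 (-1.68). Mcl1, which encodes a survival protein of the BCL2 family, had 4 of 5 regions lower, with a median level of 0.507 RPM at d0, 0.449 at day 4 and 0.128 in XEN cells. Cbfa2t2, a corepressor gene that works with PRDM14 in ES cells, had 4 of 4 regions lower. Lama5, a laminin chain gene, had 4 of 5 regions lower, opposite in direction to the Lama1 and Lamb1 regions.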

How the data were processed

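ATAC-seq of 20 samples was used as 1 deposited table of 42403 GATA6 regions (mm10). The authors trimmed reads with cutadapt, aligned them with Bowtie2, removed duplicates and low-quality alignments, and counted short fragments per region; cutadapt, Bowtie2 and SAMtools are also named in the submitters' processing notes. The deposited accessibility values are RPM: the authors scaled each library by its size and gave the average of each group. The motif scores are FIMO scores as deposited. A further 52 per-sample columns of other assays were not used here.

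Changes were computed as log2(RPM + 0.03), XEN minus d0, minus the chromosome median. Whole reads of single libraries were recovered from the averages at 24753 regions and tested with limma 3.58.1 (R 4.3.3), XEN against 8 h, all recovered libraries sharing the spread, with Benjamini-Hochberg adjustment over all regions. The steps were tested on simulated data. Differences between classes were compared over libraries by exact permutation. Nearest genes came from GENCODE M21. The design had not assumed that d0 could be resolved.

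Named regions were the 12 largest gains and losses of at least 0.5 RPM in the higher column, on autosomes, 1 per nearest gene. Named genes were the 10 highest and lowest medians among genes with 4 or more regions. From the 13 lists, the members with the largest or smallest median or the most regions were to be named. Not all of these are named, and none from the trophoblast and mesoderm lists. Other members, and the single regions shown, were chosen after their values were seen. The members and lists were chosen with earlier results of these data known. Alternatives were other pseudocounts (0.006 and 0.15 RPM), other centring, quantile normalisation, subtraction of the column minimum, filters, thresholds and single libraries. An average holds no replicate error, and a log2 change with a pseudocount understates the change of low regions. Results for a few named genes are not reported here.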

Additional observations from a re-analysis of the deposited data

How the results depend on the processing

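Without centring, 11738 regions were higher and 3745 lower, 770 genes had a median above 1 and 58 below -1, and limma called 6022 higher and 2038 lower. The Early&Constant, Late, Transient and PTF at d0 medians became 0.46, 1.13, -0.20 and -0.64. With a pseudocount of 0.15 RPM the counts were 2444 and 2295 regions, 22 and 12 genes and 1240 and 1142 limma calls, and the Late, Transient and PTF medians 0.33, -0.29 and -0.56. With 0.006 RPM, 498 and 332 genes passed, and those medians were 1.01, -0.77 and -1.25. Quantile normalisation gave 0.11 (Early&Constant), 0.69 (Late) and -0.93 (PTF). Regions with a mean of at least 0.1 RPM gave 0.20, 1.28, -0.84 and -0.98 for the 4 classes. Subtraction of the column minimum gave 0.79, -0.64 and -1.05 for Late, Transient and PTF, and centring on all regions -1.04 for PTF. A 1.5-fold threshold gave 11648 and 11270 regions, 4-fold 1004 and 1242, and genes with 2 or more regions 583 and 555.

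Single XEN libraries against d0, at the 24753 resolved regions, gave 4080 to 4167 higher and 3661 to 4432 lower regions, 154 to 157 and 102 to 127 genes, and a Late median of 0.72 to 0.75. The XEN average there gave 3861 and 3775 regions and 144 and 104 genes, since fewer regions were counted. This setting and a limma fit weighted by read depth (3728 higher, 3269 lower) were chosen after seeing the data. All 24 named regions and 20 named genes kept their sign in each of the 231 and 180 values run. They were picked as the largest changes of these averages, so a change of sign was hardly possible. Single libraries were run only where they could be resolved. Of the 13 lists, trophoblast and mesoderm changed sign without centring, and mesoderm also without XEN library B. No paired analysis was possible because the columns carry no replicate numbers.

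Within libraries, Late minus Transient moved from 1.40 between XEN and 8 h to 1.80 with 0.006 RPM and 0.69 with 0.15 RPM, PTF at d0 minus no PTF from -1.33 to -1.62 and -0.74, and SOX17 minus no SOX17 from 0.58 to 0.66 and 0.35. In XEN library A, 1 read is worth 0.0231 RPM. The d0 average carries no spread.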
